A study of Mus musculus with 22 samples.

Results

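Extraocular muscle (EOM), the set of small muscles that move the eye, was compared between SJL and Balb mice at 10 months of age. The comparison used 6 Affymetrix arrays, 3 of SJL EOM and 3 of Balb EOM, out of the 22 arrays of a study that also held leg muscle at the same age and both muscles at 12 months (1 year in the labels). All probe sets other than array controls were eligible, 12422 in number, and 8695 of them were tested after the 30% with the lowest mean had been left out. SJL is an inbred strain known for a mutation of the dysferlin gene and a progressive muscle disease, and Balb is an inbred strain without that disease that served as the reference. The labels name no treatment, sex, substrain or pooling for any group, and the strains differ at many loci, so an effect of the dysferlin mutation and effects of other strain differences cannot be told apart. Whether the 3 arrays of a strain came from 3 different mice is not given either. The p-values rest on the spread between arrays of the same group, pooled over all groups in the fit. Except where only the 6 EOM arrays were fitted, that spread came also from arrays of leg, of 12 months or of both. It may be partly technical. Probe sets for Dysf, the dysferlin gene, and for Myh13, the EOM myosin, were not analysed here. Probe sequences were not at hand, so whether sequence differences between the strains lie under any of the probes was not tested.

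Skeletal muscle is built from fibres of slow and fast type, which assemble their contractile filaments from different isoforms of myosin heavy chain, myosin light chains and troponin. EOM mixes these types with others that limb muscle lacks, including fibres that keep embryonic or cardiac isoforms into adult life. It is known for being spared in several muscular dystrophies that damage limb muscle.

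RNA quality was uneven, and it touches every result of this comparison. The ratio of the signal at the 3 prime end to that at the 5 prime end of the Actb control transcript, which rises as RNA is degraded, was 9.8 and 53.7 on replicate 1 of Balb and SJL EOM, and 1.04 to 1.77 on replicates 2 and 3. By Gapdh the ratio was 18.3 and 14.1 on the replicate 1 arrays, 1.14 and 1.54 on Balb replicates 2 and 3, and 6.71 and 4.66 on SJL replicates 2 and 3, so by this control the remaining SJL arrays also stood above the remaining Balb arrays. In leg at 10 months replicate 1 had raised ratios too, and results are therefore given on all 22 arrays and on the 18 arrays left when the 4 replicate 1 arrays at 10 months are set aside. The loss of signal with degradation was described for each probe set by a leg index, the log2 difference between replicate 1 and the mean of replicates 2 and 3 in leg at 10 months, averaged over both strains. No EOM array enters it. The tissue label was checked with Myh3, the embryonic myosin heavy chain that EOM keeps, which stood between 5892 and 13832 on the 6 EOM arrays and between 175 and 727.1 on the 6 leg arrays of the same age.

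On all 22 arrays 13 probe sets were higher and 12 lower in SJL EOM (limma, adjusted p under 0.05), which is 0.288% of those tested, 0.15% higher and 0.138% lower. The unadjusted p was under 0.05 for 475. The 18 arrays gave 166 higher and 239 lower, 4.66% of those tested (1.91% higher and 2.75% lower), and held all 25 of the first calls. With the replicate number as a block the count was 39 higher and 37 lower. The count on 18 arrays depended on setting aside the degraded leg arrays too, since leaving out only the 2 degraded EOM arrays gave 14 higher and 15 lower, and 17 of the 25 first calls were among these. Fitted by themselves, the 6 EOM arrays gave 0 calls by limma, though 225 had an unadjusted p under 0.05. With the block the same 6 arrays gave 14 higher and 10 lower, and 16 of the 25 first calls were among these. The named first calls that missed there were Gcsh, H2-Ea, Myl4, Ppan, Cbx1, Erdr1, Errfi1 and Zfp30, with adjusted p of 0.058 to 0.289. Without Balb replicate 3 the 18-array fit gave 177 higher and 149 lower, so that 54.3% of the calls were higher in place of 41%. For all 25 first calls the 3 SJL arrays lay entirely above or entirely below the 3 Balb arrays, which held for 7.86% of all probe sets tested (3.63% above and 4.22% below). The 25 were called on the values of these same arrays, so this separation is no further evidence for them. Of 21 named calls among the 25, 10 passed with any one of the 6 arrays left out and 11 missed without at least 1 of them.

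Several contractile proteins of slow fibres were among the calls, and those of the list that passed were all higher in SJL EOM. Of 15 genes tested from the slow-fibre list, 3 rose on 22 arrays and 8 on 18 arrays, and 0 fell on either. Their median log2 difference between strains was 0.74 on 22 arrays and 1.11 on 18, beside -0.01 and 0.02 over all probe sets tested. The 3 that rose on both were Myh7, Myl2 and Tnnc1, which encode the slow myosin heavy chain, the slow regulatory light chain and the slow troponin C. Their log2 differences were 2.42 to 2.75 on 22 arrays. The list was written with earlier results of these data known, so its direction is not independent evidence. In whole muscle a larger share of slow fibres and more slow-isoform RNA in each fibre cannot be told apart.

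Myh7 read 5598, 8728 and 6909 on Balb replicates 1, 2 and 3 and 26176, 43225 and 46042 on SJL replicates 1, 2 and 3. Every SJL array was above every Balb array, and SJL averaged 38500 ± 10700 (SD, n = 3) against 7080 ± 1570 (SD, n = 3) for Balb. The log2 difference was 2.42 (SE 0.44, adjusted p = 0.0179) on 22 arrays and 2.52 (SE 0.18, adjusted p = 4.59e-07) on 18. This probe set carries the suffix that Affymetrix gives to probes shared within a sequence family, so related myosin transcripts may add to it. A second and dimmer Myh7 probe set read 459.7, 390 and 390.2 in Balb and 1243, 757.4 and 1472 in SJL, without overlap, and its difference of 1.40 (SE 0.50, adjusted p = 0.6) did not pass. The first call was lost without Balb replicate 1 or 3 or SJL replicate 2 or 3, with adjusted p of 0.0648 to 0.112.

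Myl2 read 5952, 7516 and 5862 in Balb and 27144, 43983 and 41175 in SJL, again with all SJL arrays above all Balb arrays. Its log2 difference was 2.51 (SE 0.39, adjusted p = 0.00411) on 22 arrays and 2.68 (SE 0.21, adjusted p = 9.36e-07) on 18, and it passed in all 6 fits that left out 1 EOM array. Tnnc1 read 894.5, 3943 and 3331 in Balb and 5810.4, 24596 and 25832 in SJL. Replicate 1 was the lowest array in each strain, and the lowest SJL array still lay above the highest Balb array. The log2 difference of Tnnc1 was 2.75 (SE 0.57, adjusted p = 0.0479) on 22 arrays, which was lost without Balb replicate 1 or 3 or SJL replicate 2 or 3, and 2.79 (SE 0.21, adjusted p = 4.59e-07) on 18 arrays.

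Tnni1 and Myl3, the slow troponin I and the slow essential light chain, rose on 18 arrays and did not pass on 22. Tnni1 read 2154, 9998 and 9003 in Balb and 7295, 54890.2 and 61858 in SJL, so that degraded replicate 1 of SJL fell below Balb replicates 2 and 3. Its log2 difference was 2.62 (SE 0.25, adjusted p = 1.2e-05) on 18 arrays, and 2.33 with an adjusted p = 0.000189 when the replicate number was a block on 22 arrays (adjusted p = 0.48 without the block, and 1.05e-08 to 0.999 over the alternatives). Myl3 read 169.4, 776.2 and 468.7 in Balb and 609.3, 2582 and 3148 in SJL, so that SJL replicate 1 fell below Balb replicate 2. Its log2 difference was 2.21 (SE 0.21, adjusted p = 1.46e-05) on 18 arrays and 2.06 with the block (adjusted p = 0.000107, with 5.15e-07 to 0.999 over the alternatives).

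Tnnt1, the slow troponin T, was measured by a pair of probe sets that gave different pictures. The dimmer one read 2796, 3924 and 2744 in Balb and 10851, 8494 and 9423 in SJL, without overlap, a log2 difference of 1.61 (SE 0.25, adjusted p = 0.00368) that passed with any 1 EOM array left out. The brighter one read 22208, 24738 and 22086 in Balb and 10648, 69735 and 76053 in SJL, so SJL replicate 1 was the lowest of the 6 arrays and SJL replicates 2 and 3 were the highest. It rose on 18 arrays, by 1.64 (SE 0.27, adjusted p = 0.0022), and at 12 months had a log2 difference of only -0.12, beside 2.42 for the dimmer one.

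**Figure D1:**
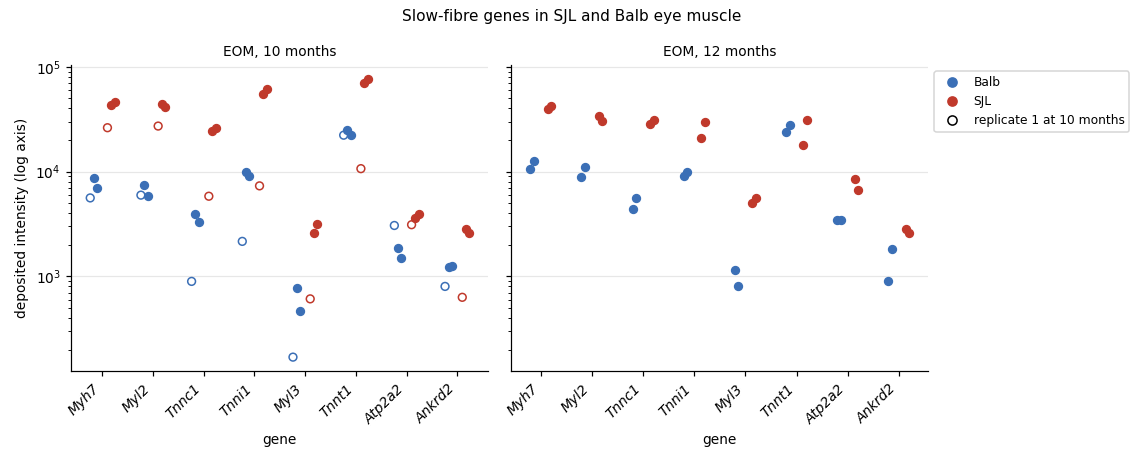
Deposited intensity (log axis) of the 8 slow-fibre genes that rose on 18 arrays, for each EOM array of Balb (blue) and SJL (red) at 10 months (left) and 12 months (right), with open circles for the degraded replicate 1 arrays at 10 months. At 10 months Myh7 stood at 26176 to 46042 in SJL and 5598 to 8728 in Balb, and for Tnni1, Myl3, Tnnt1 and Ankrd2 the open SJL circle lies among or below the Balb points.

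The 5 slow genes that rose most on 18 arrays, Tnnc1, Myl2, Tnni1, Myh7 and Myl3, lie on 4 different chromosomes. Because they moved together, the 250 bases before their first listed transcription start were read from the RefSeq promoter table of assembly GRCm38.p6 and searched for the E-box CANNTG, a motif bound by the myogenic basic helix-loop-helix factors, which reads the same on both strands, and for the MEF2 motif on both strands. Each held at least 1 E-box, with 4 in Tnni1, 2 in Tnnc1 and 1 in each of Myh7, Myl2 and Myl3, and 66.0% of all 27025 promoters in the table held one over the same length. Tnni1, Myh7 and Myl2 have a second listed start, before which each held 2. None of the 5 held the MEF2 motif, which 3.01% of promoters held, and the pair of motifs therefore did not overlap in them. The letters CACCC and TATAAA were also searched. All 5 held CACCC, beside 51.3% of promoters, and none held TATAAA, beside 8.12%. The promoters of the troponins C and I, which held the most E-boxes at the first listed start, and of Myl3, which held 1, are shown so that the matches can be seen in place. Tnnc1 is chr14:31208062-31208311 (plus strand), Tnni1 is chr1:135799171-135799420 (plus strand) and Myl3 is chr9:110763428-110763677 (plus strand), with E-boxes in capitals and the last base next to the start site.
Tnnc1: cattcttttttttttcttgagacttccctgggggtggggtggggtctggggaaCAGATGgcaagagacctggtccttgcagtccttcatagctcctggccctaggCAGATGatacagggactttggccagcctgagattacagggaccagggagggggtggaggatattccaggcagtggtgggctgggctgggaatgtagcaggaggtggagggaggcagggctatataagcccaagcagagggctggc
Tnni1: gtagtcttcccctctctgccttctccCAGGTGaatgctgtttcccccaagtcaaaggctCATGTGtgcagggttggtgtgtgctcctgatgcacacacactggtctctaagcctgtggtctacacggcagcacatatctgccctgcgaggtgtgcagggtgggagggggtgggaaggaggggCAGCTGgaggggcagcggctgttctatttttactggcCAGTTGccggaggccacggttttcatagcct
Myl3: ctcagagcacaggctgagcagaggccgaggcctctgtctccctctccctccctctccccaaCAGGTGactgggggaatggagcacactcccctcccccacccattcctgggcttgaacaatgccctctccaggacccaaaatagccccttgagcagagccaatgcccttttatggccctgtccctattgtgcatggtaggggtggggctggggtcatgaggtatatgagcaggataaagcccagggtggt
A match is only a description of these letters, and binding was not measured.

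Other slow-fibre genes moved less. Atp2a2, the calcium pump of slow and cardiac muscle, read 3055, 1855 and 1492 in Balb and 3107, 3611 and 3904 in SJL, without overlap, and rose on 18 arrays by 1.17 (SE 0.21, adjusted p = 0.00353). Ankrd2, a stretch-responsive ankyrin repeat protein of slow fibres, read 801, 1229 and 1246 in Balb and 630.6, 2806 and 2577 in SJL and rose on 18 arrays by 1.11 (SE 0.23, adjusted p = 0.0111), although SJL replicate 1 was the lowest of the 6. Fhl2 had 0.55, Casq2 0.66, Tpm3 0.32 and Actc1 0.24 on 18 arrays, and none of these passed on either set of arrays. The remaining 3 had negative differences that did not pass. Over the 15 genes tested, every SJL array lay above every Balb array for 5 and below every Balb array for 1. Of all probe sets tested 3.63% lay above and 4.22% below in this way. Mb, the oxygen-binding myoglobin, had -0.56 and -0.38 on 22 and 18 arrays, with signs that turned under some alternatives. Csrp3, a Z-disc protein, had -1.69 and -0.73, and Sln, an inhibitor of the calcium pump, had -0.58 and -0.61.

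Fast-fibre genes gave no call. Of 17 fast-fibre genes tested 0 rose and 0 fell on 22 arrays by limma, also at an unadjusted p under 0.05, and 0 passed on 18 arrays, with a median of 0.05 on both. Myh4 and Myh1, fast myosin heavy chains, were named after their values were seen. Myh4 read 15974, 50272 and 59618 in Balb and 22050.1, 58831 and 56657 in SJL. Myh1 read 31061, 72738 and 68199 in Balb and 36541, 90548 and 66449 in SJL. The strains overlapped for both, and replicate 1 was the lowest array in each strain. In summed intensity on replicates 2 and 3, the slow-fibre list stood at 185196 and 226253 in Balb and 408523 and 418513 in SJL. The fast-fibre list stood at 722722 and 756225 in Balb and 735247 and 745056 in SJL. With replicate 1 included the strains overlapped for both lists. The slow-fibre sums then ran from 92766 to 226253 in Balb and from 136736 to 418513 in SJL. Those of the fast-fibre list ran from 211031 to 756225 in Balb and from 242532 to 745056 in SJL.

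For 5 of the 15 slow-fibre genes the strain difference was larger in EOM than in leg on 18 arrays, and for Actc1 it was smaller. In Balb leg at 10 months Myh7 stood at 24149, 43799.5 and 45332 and Myl2 at 23466, 59943 and 47925. In SJL leg Myh7 stood at 13383, 73149.7 and 48953 and Myl2 at 21453, 68616 and 60613, so the strains overlapped there. The test of the strain difference in EOM against that in leg gave 0 probe sets on 22 arrays by limma (0% of those tested, though 278 had an unadjusted p under 0.05) and 19 higher (0.219%) and 29 lower (0.334%) on 18 arrays, 0.552% in all. Of the 19 that were higher, 5 were slow-fibre genes. The difference of log2 differences was 2.41 (SE 0.30, adjusted p = 0.0011) for Myl2, 2.31 (SE 0.30, adjusted p = 0.00114) for Myl3, 2.23 (SE 0.29, adjusted p = 0.00114) for Tnnc1, 2.09 (SE 0.26, adjusted p = 0.0011) for Myh7 and 2.06 (SE 0.35, adjusted p = 0.00992) for Tnni1. Actc1, the cardiac actin that immature skeletal muscle also makes, went the other way by -2.06 (SE 0.27, adjusted p = 0.00123). It read 19056, 49964 and 46793 in Balb EOM and 22952, 57536 and 56377 in SJL EOM, and 9215, 8186 and 8778 in Balb leg and 20044, 39123 and 44415 in SJL leg.

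At 12 months, on 4 other EOM arrays, the slow-fibre list had a median of 0.90. Counted by the brightest probe set of each gene, none of the 15 passed there on 22 arrays, and 8 rose on 18, where 0.506% of all probe sets were called on 22 arrays (0.161% higher and 0.345% lower) and 3.04% on 18 (1.29% higher and 1.75% lower). Tnnc1 read 4421 and 5533 on the 2 Balb arrays and 28228 and 31048 on the 2 SJL arrays, and Myl3 read 1137 and 807.9 in Balb and 5055 and 5542 in SJL. The dimmer Tnnt1 probe set passed at that age on 22 arrays, with 2.42 (adjusted p = 0.000312). No slow-fibre gene passed the test of a difference between ages on either set of arrays.

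Of a pair of cardiac isoforms, only Myl4 gave a call, and not at its brighter probe set. Myl4, the atrial and embryonic light chain, read 681.3, 1008 and 1205 in Balb and 2869, 2851 and 2771 in SJL at one probe set, without overlap, a log2 difference of 1.58 (SE 0.28, adjusted p = 0.0143). The call was lost without Balb replicate 1 or SJL replicate 2 or 3, and the brighter Myl4 probe set had 0.46 with an adjusted p = 0.999. In leg at 10 months the called Myl4 probe set had 1.68 (adjusted p = 0.00432) on 18 arrays. Its strain difference in EOM did not differ from that in leg there (-0.34, adjusted p = 0.813). Myh6, the atrial myosin heavy chain that EOM can express, was too dim for the filter and is named because of its values. It read 65.9, 34.5 and 34.3 in Balb and 1134, 447.4 and 289.6 in SJL, without overlap, and with no filter its log2 difference of 3.20 (SE 0.76, adjusted p = 0.126) did not pass.

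Other calls lay outside the contractile filaments. Phkg1, the catalytic subunit of the muscle phosphorylase kinase that starts glycogen breakdown (chromosome 5), showed the largest difference of the 25. It read 298.5, 232.9 and 157.2 in Balb and 2426, 5573 and 5904 in SJL, a log2 difference of 4.18 (SE 0.36, adjusted p = 1.06e-05) on 22 arrays and 4.79 (SE 0.29, adjusted p = 7.06e-08) on 18. The strains did not overlap. The difference was 5.89 in EOM at 12 months and 4.83 in leg at 10 months on 18 arrays.

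Pdxdc1, a gene named for a pyridoxal-dependent decarboxylase domain (chromosome 16), went in opposite directions at its probe sets. The brightest read 5489, 5063 and 3894 in Balb and 586.4, 641.7 and 171.3 in SJL, a log2 difference of -3.51 (SE 0.46, adjusted p = 0.00108). A second read 224.4, 119.8 and 487.4 in Balb and 1388, 1793 and 1991 in SJL, a difference of 2.76 (SE 0.45, adjusted p = 0.00619), and another had 1.52 on 22 arrays, which passed only on 18 (adjusted p = 0.0159). No single direction can be given for the gene.

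Tfb2m, a mitochondrial transcription factor (chromosome 1), read 2034, 1341 and 1359.6 in Balb and 303.9, 404.1 and 203.7 in SJL, without overlap, a difference of -2.34 (SE 0.27, adjusted p = 0.000278). Abcd3, a transporter of the peroxisome membrane, read 9786, 7217 and 11712 in Balb and 3068, 3226 and 3215 in SJL, a difference of -1.56 (SE 0.22, adjusted p = 0.00178). Gcsh, the carrier protein of mitochondrial glycine cleavage, read 4839, 3998 and 3892 in Balb and 1489.6, 2032 and 1888 in SJL, a difference of -1.23 (SE 0.18, adjusted p = 0.00188). Thumpd1, a tRNA acetylation cofactor, went the other way, with 1087, 1184 and 788.9 in Balb, 3919, 2625 and 2929.8 in SJL and a difference of 1.61 (SE 0.22, adjusted p = 0.00141). All 4 of these genes passed with any 1 EOM array left out. At 12 months their differences were -1.65 for Tfb2m, -2.14 for Abcd3, -1.71 for Gcsh and 3.03 for Thumpd1. In leg at 10 months all 4 passed on 18 arrays, at -1.77, -1.43, -1.06 and 1.71 in the same order.

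Sspn encodes sarcospan, a membrane protein of the dystrophin complex that links the fibre's cytoskeleton to the matrix. It read 5257, 7091 and 7443 in Balb and 1884, 2202 and 1812 in SJL, a log2 difference of -1.73 (SE 0.24, adjusted p = 0.00141) on 22 arrays and -1.85 (SE 0.13, adjusted p = 4.51e-07) on 18. The highest SJL array was below the lowest Balb array, and the difference was -2.07 at 12 months. In leg at 10 months it was -1.41 on 18 arrays (adjusted p = 8.84e-06). Among the 18 sarcolemma and dystrophin-complex genes tested, Sspn was the only one to pass on 22 arrays, and 0 rose. On 18 arrays Anxa6, an annexin of membrane repair, fell as well. It read 3978, 14799 and 16649.8 in Balb and 3284, 7185 and 7759 in SJL, with -1.07 (SE 0.16, adjusted p = 0.00102) on 18 arrays and -0.15 at 12 months. The list's median was 0.10 on 22 arrays and 0.18 on 18.

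Of the other named calls, Pla2g12a, a secreted phospholipase, read 16566, 9233 and 9965 in Balb and 6454, 2164 and 1891 in SJL, a log2 difference of -1.94 (SE 0.34, adjusted p = 0.0143), while its other probe set had -0.48. Ppan, a ribosome assembly factor, had -2.18, Cbx1, a heterochromatin protein, -1.42, and Errfi1, a feedback inhibitor of EGF receptor signalling, -1.45. These 3 lay at -0.38, 0.14 and 0.09 at 12 months. Erdr1 was higher by 1.07 (-0.04 at its other probe set) and the zinc finger gene Zfp30 by 1.46. With 1 EOM array left out at a time, each of these 6 genes lost its call in at least 3 of the 6 fits. A further 3 calls, at 2.91, 2.35 and -2.05, had no single gene symbol.

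**Figure D2:**
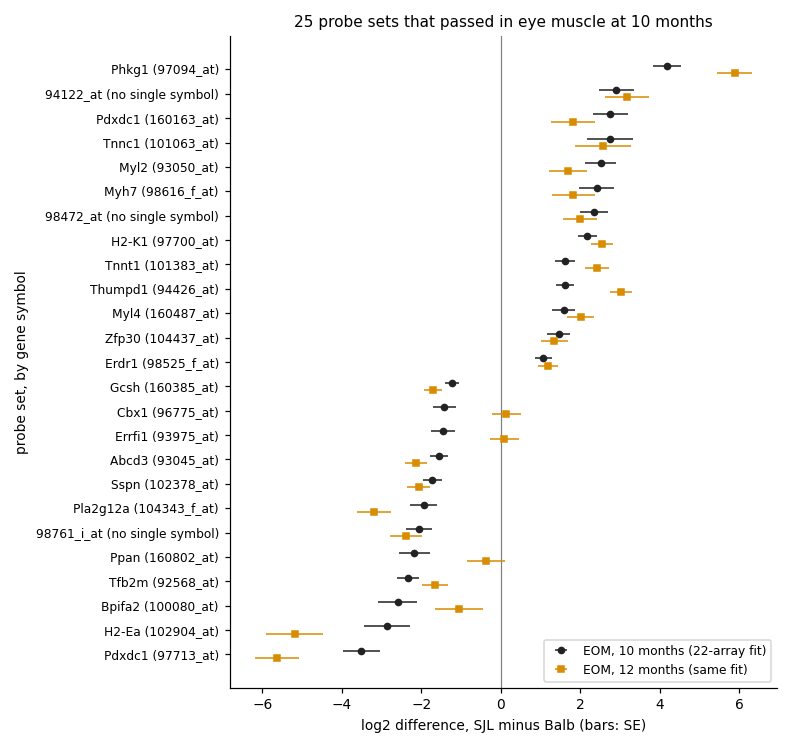
Log2 difference, SJL minus Balb, of the 25 probe sets called on 22 arrays (black circles, EOM at 10 months) beside their difference at 12 months on other arrays of the same fit (orange squares), with SE bars. Signs were the same at both ages for 23 of the 25, and Cbx1 and Errfi1 sit near 0 at 12 months.

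The calls were set against the 12-month EOM arrays, none of which enters the 10-month difference. Of the 25, 23 had the same sign there (92%, beside 60.5% of all probe sets tested), and 16 passed at that age on 22 arrays, where 0.506% of all were called. Both ages share 1 estimate of the spread for each probe set, so the count that passed is not independent of the 10-month calls. All 13 that were higher and 10 of the 12 that were lower kept their sign. On 18 arrays 150 of the 166 that were higher (90.4%) and 196 of the 239 that were lower (82%) had the same sign at 12 months, beside 60.6% of all. The median difference of the lower calls was -1.14 at 10 months and -0.36 at 12 months, and that of the higher calls 0.93 and 0.51. The calls were chosen on the 10-month values, so no difference in size between the ages is read from these medians. In leg at 10 months on 18 arrays 24 of the 25 first calls had the same sign, beside 4880 of the 8695 tested. With that sign 15 of the 25 passed in leg, beside 230 of the 8695, so most of these differences were not particular to EOM. The spread used there also came from arrays shared with the calls.

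Genes of antigen presentation gave both directions. H2-K1, a class I molecule that shows peptides to cytotoxic T cells (chromosome 17), read 1078, 994 and 1317 in Balb and 4099.9, 5678 and 5820.4 in SJL at one probe set, a log2 difference of 2.18 (SE 0.23, adjusted p = 8.74e-05) without overlap. In leg at 10 months that probe set had 1.67 on 18 arrays (adjusted p = 0.000651). The brightest H2-K1 probe set read 19116, 17632 and 18446 in Balb and 24427, 18032 and 20359 in SJL, and its difference was 0.18. A further H2-K1 probe set had 0.09 on 22 arrays and 0.07 on 18, and neither of these probe sets passed. H2-Ea, the alpha chain of a class II molecule, read 919.9, 1047 and 1012 in Balb and 313.3, 47.3 and 112.9 in SJL, a difference of -2.86 (SE 0.58, adjusted p = 0.0456). That call was lost without any one of Balb replicates 1, 2 and 3 or SJL replicates 2 and 3 (adjusted p of 0.0805 to 0.204), and at 12 months the difference was -5.19 (adjusted p = 0.000858).

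The other class II genes did not follow H2-Ea. Of 11 tested 1 fell and 0 rose on 22 arrays, with a median of 0.26, and 1 fell and 2 rose on 18, with a median of 0.37. The median turned to -0.24, -0.03 and -0.09 without Balb replicate 1, SJL replicate 2 and SJL replicate 3 of the 22 arrays, with 0 class II calls in those fits. H2-Aa, another alpha chain, read 135.9, 1716 and 2086 in Balb and 145.6, 3388 and 3607 in SJL and rose on 18 arrays by 0.88 (SE 0.23, adjusted p = 0.0348). With the block on 18 arrays it missed (adjusted p = 0.0552, with 0.00284 to 1 over the alternatives), and on 22 arrays its difference was -0.60, -0.10 and -0.15 without those same 3 arrays in turn. Its signal was nearly gone on both degraded arrays, and its leg index was -2.97. Ctss, the protease that prepares class II molecules, read 4030.1, 1226 and 1444 in Balb and 7443, 3448 and 2609.9 in SJL. It rose on 18 arrays by 1.16 (SE 0.22, adjusted p = 0.00587), and with the block on 22 arrays (adjusted p = 0.0121, with 0.00237 to 1 over the alternatives). H2-Ab1, H2-Eb1 and Cd74 had 0.70, 0.62 and 0.37 on 18 arrays and did not pass. The strain difference of H2-Aa was smaller in EOM than in leg, by -2.12 (SE 0.32, adjusted p = 0.00366), with 3.01 in leg.

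Interferon-responsive genes gave calls in EOM on 18 arrays. On 22 arrays limma called 0 of the 22 tested (1 had an unadjusted p under 0.05), with a median of 0.10. On 18 arrays 3 rose, with a median of 0.39, where 1.91% of all probe sets tested were called higher. The summed intensity of the list was 35266 and 36791 on Balb replicates 2 and 3 and 57510 and 66289 on SJL replicates 2 and 3. With replicate 1 included the sums overlapped, at 35266 to 60000 in Balb and 46358 to 66289 in SJL. Ly6e, a membrane protein induced by interferon, read 18729, 11489 and 9914 in Balb and 23283, 31391 and 27369 in SJL, without overlap, and rose by 1.46 (SE 0.15, adjusted p = 3e-05) on 18 arrays. Its strain difference was smaller than in leg, by -1.21 (SE 0.22, adjusted p = 0.0123). Ifit3, and Gbp2, which was named after its values were seen, rose by 1.68 and 1.40 on 18 arrays, though the strains overlapped when replicate 1 was included. Psme1, an activator of the proteasome, rose by 1.26 (SE 0.15, adjusted p = 0.000118) on 18 arrays and with the block on 22 (adjusted p = 0.00692, with 3.52e-05 to 0.999 over the alternatives). Counted by the brightest probe set of each gene, it was the only one of 17 class I and peptide-loading genes to pass on 18 arrays, and limma called 0 of them on 22 (3 had an unadjusted p under 0.05). The H2-K1 call given above was at a dimmer probe set, which passed on both, with 2.31 (SE 0.24, adjusted p = 2.98e-05) on 18 arrays.

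Limma called 0 of 24 macrophage and myeloid genes on 22 arrays (1 had an unadjusted p under 0.05), and Ctss and Cd53, a leukocyte membrane protein, rose on 18. Cd53 read 819.2, 43.3 and 25.2 in Balb and 730.3, 355.5 and 206.6 in SJL. Replicate 1 was the highest array in each strain, and the leg index was 2.87. The summed intensity of the macrophage list was 23040 and 27994 on Balb replicates 2 and 3 and 28533 and 29926 on SJL replicates 2 and 3. With replicate 1 included the sums overlapped, at 23040 to 38763 in Balb and 28533 to 43413 in SJL. Lymphocyte and NK genes gave 0 calls among 12 on either set of arrays (0 at an unadjusted p under 0.05 on 22), and 14 neutrophil and mast cell genes gave 0 on 22 arrays (2 at an unadjusted p under 0.05) and 2 falls on 18. The 2 were Pglyrp1, a bactericidal protein, at -1.98 (SE 0.46, adjusted p = 0.0196), and Ltf, lactoferrin, at -1.71 (SE 0.47, adjusted p = 0.0468), both of which glands also make. With the block on 18 arrays Ltf missed (adjusted p = 0.0692, with 0.0287 to 1 over the alternatives). Cd55, an inhibitor of complement, read 738.6, 463.9 and 576.1 in Balb and 246, 258 and 136.8 in SJL, without overlap. It fell on 18 arrays, with a difference of -1.38 (SE 0.35, adjusted p = 0.0329), and with the block on 22 arrays, with -1.43 (adjusted p = 0.0199, with 0.00908 to 0.999 over the alternatives).

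Several immediate early genes, transcription factors and regulators that cells switch on rapidly after a stimulus, were lower in SJL EOM on 18 arrays. Limma called 0 of 24 immediate early and heat shock genes on 22 arrays (8 had an unadjusted p under 0.05), and on 18 arrays 6 fell and 0 rose. The median was -0.58 on 22 arrays and -0.72 on 18, and 23 of the 24 had a negative difference on each. In 9 of the 24 every SJL array lay below every Balb array, which held for 4.22% of all probe sets.

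Fos, a subunit of the AP-1 factor, read 2114, 5185 and 2586 in Balb and 1604, 794.9 and 755.3 in SJL. The highest SJL array was the degraded one, and it lay below the lowest Balb array. The log2 difference was -1.61 (SE 0.41, adjusted p = 0.164) on 22 arrays and -2.22 (SE 0.34, adjusted p = 0.00128) on 18. Egr1 read 2352, 3909 and 3651 in Balb and 1557, 1372 and 1769.8 in SJL, with -1.27 (SE 0.25, adjusted p = 0.00687) on 18 arrays, and without Balb replicate 1 it passed also on the 21 arrays left (adjusted p = 0.044). Nr4a1, an orphan nuclear receptor, read 3633, 6346 and 4863 in Balb and 2839.5, 2557 and 1641 in SJL, with -1.43 (SE 0.21, adjusted p = 0.000902) on 18 arrays and an adjusted p = 0.0449 with the block on 22 (0.000553 to 0.999 over the alternatives). The strains did not overlap for either gene.

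Ier2, Btg2 and Dusp1, the last 2 named because they passed, fell by 1.24, 0.88 and 0.66 on the log2 scale on 18 arrays. The heat shock genes of the list did not pass there. Hspa1a and Hspa1b, named after their values were seen, had -1.81 and -2.01. At 12 months the list had a median of 0.15 and 0 calls on either set of arrays, and Fos read 602.6 and 834.1 in Balb and 1191 and 922.5 in SJL. The strain difference of Fos was more negative at 10 than at 12 months by -2.77 (SE 0.48, adjusted p = 0.0367) on 18 arrays. That test called 0 probe sets on 22 arrays by limma (0% of those tested, though 257 had an unadjusted p under 0.05) and 3 higher (0.0345%) and 5 lower (0.0575%) on 18, 0.092% in all. In leg at 10 months the list's median was -0.83 on 18 arrays.

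**Figure D3:**
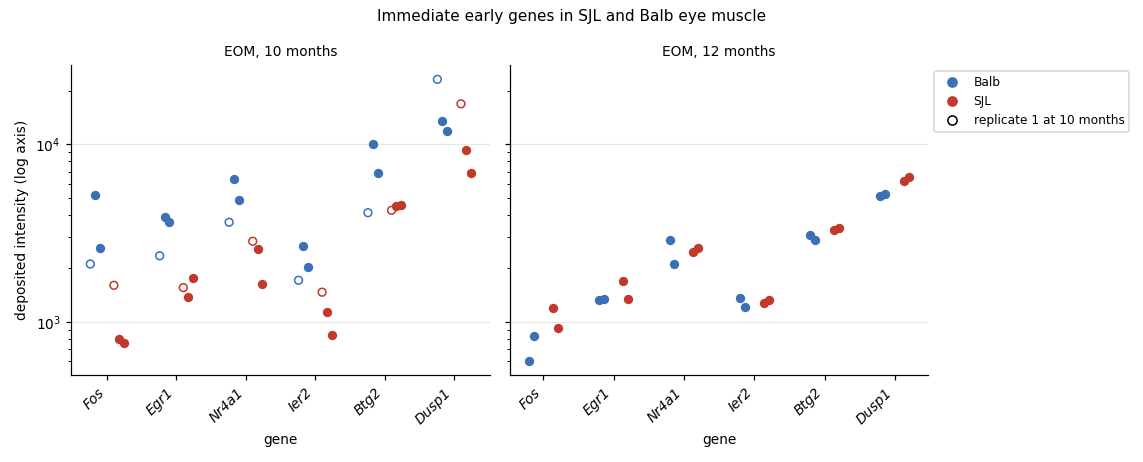
Deposited intensity (log axis) of the 6 immediate early genes that fell on 18 arrays, for each EOM array of Balb (blue) and SJL (red) at 10 months (left) and 12 months (right), with open circles for the degraded replicate 1 arrays. At 10 months Fos stood at 755.3 to 1604 in SJL and 2114 to 5185 in Balb, and at 12 months the strains lie close together.

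Genes of the glands and epithelia around the eye gave 1 call on 22 arrays. Bpifa2, a protein of salivary and lacrimal secretions, read 15600.5, 13114 and 11707 in Balb and 1057, 3486 and 2848 in SJL, a log2 difference of -2.60 (SE 0.49, adjusted p = 0.0216) on 22 arrays without overlap. The call was lost without any one of the Balb arrays or SJL replicate 1, and on 18 arrays the difference was -1.97 (SE 0.42, adjusted p = 0.0122). It was the only one of 26 genes of the list to pass on 22 arrays, with a median of -0.32. By limma 10 of the 26 had an unadjusted p under 0.05 there, beside 475 of all 8695 tested. On 18 arrays 3 fell and 0 rose, with a median of -0.36. The other 2 on 18 arrays were Ltf, already given, and Sfn, a 14-3-3 protein of epithelium named after its values were seen, at -2.20 (SE 0.58, adjusted p = 0.0395). At 12 months 4 of the 26 fell on 22 arrays. Krt6a, an epithelial keratin named after its values were seen, was 1 of these, at -4.02 (adjusted p = 1.41e-05), while at 10 months it had -0.95 on 18 arrays (adjusted p = 0.152). The difference between ages was 3.06 (SE 0.50, adjusted p = 0.0299) on 18 arrays. The list's summed intensity was 77094 and 84037 on Balb replicates 2 and 3 and 66253 and 78291 on SJL replicates 2 and 3, so the ranges overlapped. Every SJL array lay below every Balb array for 7 of the 26 and above for 3. Of all probe sets tested 4.22% lay below and 3.63% above in this way. The part of such tissue in other results was not tested. Retina, lens and cornea genes gave 0 calls among 12 on both sets of arrays (0 at an unadjusted p under 0.05 on 22).

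Of 21 glycogen and glycolysis genes Phkg1 rose on both sets of arrays, and 1 more rose and 1 fell on 18. Gbe1, the branching enzyme, read 1333, 1173 and 1447 in Balb and 1881, 2779 and 3100.3 in SJL, without overlap, and rose on 18 arrays by 1.16 (SE 0.23, adjusted p = 0.00684). Gys1, the muscle glycogen synthase, read 9066, 31269 and 28895 in Balb and 5561, 16372 and 17192 in SJL and fell on 18 arrays, with a difference of -0.84 (SE 0.11, adjusted p = 0.00033) and a leg index of -1.19. The median of the list was -0.03 on 22 arrays and 0.00 on 18.

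Adipocyte and vessel genes gave falls on 18 arrays only. Of 18 adipocyte genes 3 fell on 18 arrays and limma called 0 on 22 (3 had an unadjusted p under 0.05), with a median of -0.35 on both. Over all probe sets tested 2.75% fell on 18 arrays. Every SJL array lay below every Balb array for 3 of the adipocyte genes and above for 2. Of all probe sets tested 4.22% lay below and 3.63% above in this way. Adig, a regulator of fat cell differentiation, read 1214, 1429.9 and 1856 in Balb and 746.3, 564.3 and 520.1 in SJL, without overlap, a difference of -1.56 (SE 0.25, adjusted p = 0.00191) on 18 arrays and -1.71 at 12 months. The other 2, Fasn and Plin4, named because they passed, had -0.79 and -0.59. Of 21 endothelium and pericyte genes Rgs5 and Cldn5 fell on 18 arrays, and limma called 0 on 22 (2 had an unadjusted p under 0.05). Every SJL array lay above every Balb array for 2 of these 21 and below for 1, beside the same 3.63% and 4.22% of all. Rgs5, a pericyte marker, read 1542, 1187 and 1584 in Balb and 411, 489.6 and 523.4 in SJL, a difference of -1.41 (SE 0.35, adjusted p = 0.0308), and passed with the block on 22 arrays (adjusted p = 0.0187, with 0.00483 to 0.601 over the alternatives), while its other probe set had -0.25. Cldn5, an endothelial tight-junction protein, had -2.07 (SE 0.52, adjusted p = 0.0325).

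**Figure D4:**
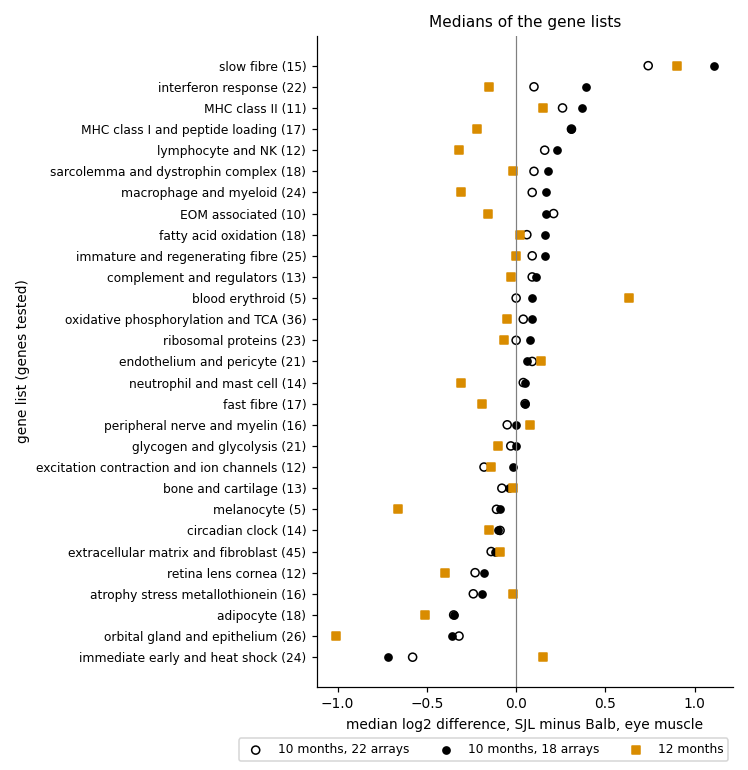
Median log2 difference, SJL minus Balb, of each gene list with 5 or more genes tested (the strain-variable list is not drawn), in EOM at 10 months on 22 arrays (open circles) and 18 arrays (filled circles) and at 12 months (squares), with the number of genes in brackets. The slow-fibre list is highest at 10 months (0.74 and 1.11), and the immediate early and heat shock list is lowest (-0.58 and -0.72) with 0.15 at 12 months.

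Among probe sets called only on the 18 arrays, the largest were named if replicates 2 and 3 did not overlap between strains, which held for 46.9% of all. Clip4, a microtubule-binding protein, read 4208, 814.2 and 925.9 in Balb and 28621, 8869 and 7284 in SJL, without overlap, and differed by 3.19 (SE 0.21, adjusted p = 2.38e-07) on 18 arrays, and by 3.05 with the block on 22 (adjusted p = 3.62e-07, with 5.91e-08 to 0.999 over the alternatives). Mgst1, a microsomal glutathione transferase, read 18145, 4835 and 5139 in Balb and 4269.6, 954 and 1007 in SJL. Its difference was -2.33 (SE 0.17, adjusted p = 4.59e-07) on 18 arrays and -2.25 with the block on 22 (adjusted p = 8.67e-06, with 6.71e-09 to 0.999 over the alternatives). Both genes had the same sign at 12 months, at 2.29 and -3.16, and in leg, at 2.28 and -2.65.

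Elovl5, an elongase of polyunsaturated fatty acids, differed from these. It read 8354, 15569.9 and 40852 in Balb and 8533, 6186 and 4229.8 in SJL, so that Balb replicate 3 was far above the rest and replicate 1 of both strains was level. Its difference was -2.30 (SE 0.30, adjusted p = 0.000327) on 18 arrays, beside 0.24 at 12 months and 0.02 in leg, and it passed the tests of a difference between ages, at -2.54 (SE 0.43, adjusted p = 0.0299), and between muscles, at -2.32 (SE 0.43, adjusted p = 0.0146).

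The other large calls of the 18 arrays that were higher were Cd53, Zfp101, Bet1, Tbc1d15, Rab14, Mpeg1 and Zfp467, with log2 differences of 1.95 to 2.54. Those that were lower were Azi2, Plet1, Baiap2l1, Cxcl1, Cbx5, Cops7a, Fabp5 and Akt1s1, with -2.82 to -2.25. Plet1, a surface protein of epithelial cells, read 3014, 1690.4 and 2316 in Balb and 965.7, 513.5 and 149.8 in SJL and stood at -4.32 at 12 months. Cxcl1, a chemokine that draws neutrophils, read 465.8, 1035 and 1579.9 in Balb and 236.1, 116.3 and 411.5 in SJL and stood at 1.31 at 12 months, the opposite sign, which did not pass. The brighter probe sets of Cbx5 and Cops7a had differences of 0.00 and -0.01, and those of Rab14 and Tbc1d15 0.29 and 0.81. A further Rab14 probe set had 0.41, and the other probe set of Azi2 0.13.

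The calls on 18 arrays moved with the leg index. The 239 that were lower in SJL had a median leg index of -1.39, and 138 of them (57.7%) lost more than 1 log2 unit on the degraded leg arrays, beside 15.5% of all probe sets tested. The 166 that were higher had a median of 0.69, and 53 (31.9%) gained more than 1 log2 unit, beside 12.5% of all. Over the 8695 probe sets, which are not independent and share the same arrays, the correlation of the leg index with the strain difference was 0.29 in EOM at 10 months on 18 arrays, 0.09 in EOM at 12 months and 0.04 in leg at 10 months. Among calls whose leg index lay within 1 of 0, 98 were higher and 90 lower, and 89.8% and 76.7% of these had the same sign at 12 months. With the Gapdh ratio of each array as a covariate the 18 arrays gave 68 higher and 102 lower. The part of RNA quality in single results was not tested. The slow genes had leg indices of -2.41 (Myl3) to -1.16 (Tnnc1) among the 5 that rose most, which is a loss of signal on the degraded leg arrays.

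The remaining lists gave few calls. On 18 arrays Gadd45g, a growth arrest gene, was the only one of 16 atrophy and stress genes to pass, at -0.91, and Rpsa, a ribosomal protein, the only one of 23, at -0.50, and limma called 0 of either list on 22 arrays (0 had an unadjusted p under 0.05). On both sets of arrays 0 passed of 10 EOM-associated, 18 fatty acid oxidation, 12 excitation and ion channel, 14 circadian, 5 blood, 16 nerve and myelin, 5 melanocyte, 13 bone and cartilage and 3 sex-linked genes, and by limma 0 to 2 of each list had an unadjusted p under 0.05 on 22. The melanocyte genes Dct, Pmel, Mitf, Oca2 and Kit were the 5 tested. A list of 6 strain-variable genes, taken from earlier results of these data, held 1 rise and 3 falls on 22 arrays, all given above, and supports nothing.

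**Figure D5:**
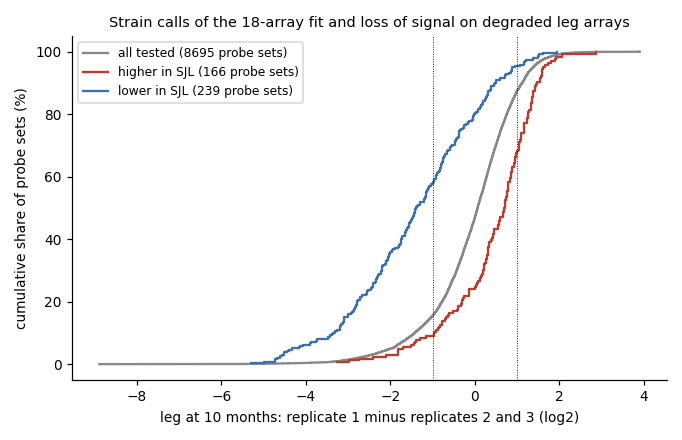
Cumulative share (%) of probe sets by leg index (log2, replicate 1 minus replicates 2 and 3 of leg at 10 months), for all 8695 tested (grey) and for the 166 higher (red) and 239 lower (blue) in SJL EOM on 18 arrays, with dotted lines at -1 and 1. The blue line reaches 57.7% at -1 where the grey line is at 15.5%.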

How the data were processed

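The data are 22 arrays of total RNA, with a mean fitted for each of 8 groups (strain, muscle and age). The authors deposited linear intensity values, 1 per probe set and array; per the labels' protocol the standard Affymetrix procedure was followed, while how probes were corrected and combined is not given in the sources used here. The trimmed mean of every array lay between 1500.8 and 1501.1, so no further scaling was applied. Probe sets were named through a platform annotation table. Of 12422 probe sets that are not controls, 10833 had 1 gene symbol, 396 several and 1193 none, and 10817 gene IDs were found in the GRCm38.p6 gene table.

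Values were taken as log2(intensity + 16), so that folds of dim probe sets are understated. Probe sets in the lowest 30% by mean were dropped. Models were fitted with limma 3.58.1 in R 4.3.3 (lmFit, eBayes with an intensity trend, two-sided, Benjamini-Hochberg over all 8695), on 22 arrays (14 residual degrees of freedom) and on the 18 arrays without replicate 1 at 10 months (10 residual degrees of freedom, with 2 arrays against 2). The number of arrays limits the precision. The code was tested on simulated data. Plots used matplotlib 3.10.9 and Python 3.11.15.

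The members and the 31 gene lists were chosen with earlier results of these data known. Lists used the probe set with the highest mean per gene and are described by counts and medians. Over all probe sets tested 1.91% were called higher and 2.75% lower on 18 arrays, which stands beside the counts of every list. Named genes were the 15 largest rises and falls among calls with 1 symbol (of several passing probe sets the one with the highest mean, with the gene's others given where they differ), the 10 largest rises and falls called only on 18 arrays without overlap of replicates 2 and 3, the 4 smallest p of every list, and all members of the slow-fibre, class II and strain-variable lists; others are said to be named after their values were seen.

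Replicate numbers come from the labels. Deviations from the group means correlated between same-numbered SJL and Balb EOM arrays at 10 months with r = 0.759, 0.474 and 0.523 for replicates 1, 2 and 3. Both replicate 1 arrays were degraded, and over replicates 2 and 3 alone r was 0.0174. Blocked values are given where they change a named call on 22 or on 18 arrays.

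Alternatives were array weights, the replicate block, quantile normalization, median centring, other constants and filters, eBayes without the trend or robust, fewer groups of arrays, and each of the 6 EOM arrays left out in turn. The covariates of RNA quality, the limit on the leg index and the alternatives on the 18 arrays other than the block and quantile normalization were added after seeing the data.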

Additional observations from a re-analysis of the deposited data

Results flagged for a closer look

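No group held 4 or more arrays, so single arrays could not be screened as outliers. The results here stood out because their strain difference passed a test of the difference between muscles or between ages on 18 arrays (limma). None passed on 22 arrays. Of 48 probe sets that passed between muscles and 8 between ages, those listed are the named genes and the brightest probe sets of list members.

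Between muscles at 10 months, as the strain difference in EOM minus that in leg, 5 slow-fibre genes were positive. They were Myl2 at 2.41 (adjusted p = 0.0011), Myl3 at 2.31 (adjusted p = 0.00114), Tnnc1 at 2.23 (adjusted p = 0.00114), Myh7 at 2.09 (adjusted p = 0.0011) and Tnni1 at 2.06 (adjusted p = 0.00992). Mbp, a protein of myelin, had 1.89 (adjusted p = 0.0121). Its strain difference was 0.70 in EOM, which did not pass, and -1.19 in leg (adjusted p = 0.00905).

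The negative ones were Ltf at -3.12 (adjusted p = 0.0408), Elovl5 at -2.32 (adjusted p = 0.0146), H2-Aa at -2.12 (adjusted p = 0.00366), Actc1 at -2.06 (adjusted p = 0.00123), Lyz2, a lysozyme of myeloid cells, at -1.47 (adjusted p = 0.0149) and Ly6e at -1.21 (adjusted p = 0.0123). Ltf had a strain difference of -1.71 in EOM and 1.40 in leg. Lyz2 had 0.12 in EOM, which did not pass, and 1.59 in leg (adjusted p = 0.000151).

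Between ages in EOM, as the strain difference at 10 months minus that at 12 months, Fos had -2.77 (adjusted p = 0.0367) and Elovl5 -2.54 (adjusted p = 0.0299). Krt6a had 3.06 (adjusted p = 0.0299), being lower in SJL mainly at 12 months, and its other probe set 4.53 (adjusted p = 0.00756). Pla2g12a had 0.96 (adjusted p = 0.0299), being lower in SJL at both ages.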

How the results depend on the processing

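The count of 25 calls in EOM at 10 months on 22 arrays moved to 405 on 18 arrays, 356 with array weights, 76 with the replicate block, 87 and 41 with the Actb and Gapdh ratios as covariates, 340 with the block on 18 arrays and 544 with quantile normalization on them. It moved to 0, 3 and 8 on only the 6 EOM arrays at 10 months, the 12 arrays at 10 months and the 10 EOM arrays, and ranged from 16 (without Balb replicate 3) to 34 with 1 EOM array left out. The count of 405 on 18 arrays moved to 170 with the Gapdh covariate and 188 within the leg index limit, and ranged from 161 (without Balb replicate 2) through 208 and 260 (without SJL replicates 2 and 3) to 326. The difference between muscles moved from 0 to 48 on 18 arrays, 1 on 20, 15 with weights, 6 with the block, 2 with quantile normalization, and 1 and 8 with the Gapdh and Actb covariates, and was 0 with any 1 array left out. The difference between ages moved from 0 to 8 on 18 arrays, 1 on 20, 9 with weights, 2 with no filter, 1 with the lowest 50% left out, and 2 and 2 with the Gapdh and Actb covariates, and was 0 to 1 with 1 array left out. At 12 months the count of 44 moved to 264 on 18 arrays, 228 with weights and 113 with the Actb covariate, and was 37 to 52 with 1 array left out; median centring turned 14 higher and 30 lower into 17 and 23. Other settings left these counts within 1.5 times. Signs reversed for H2-Aa (-0.60 to 2.10 with 1 array left out, at -0.60, -0.10 and -0.15 without Balb replicate 1, SJL replicate 2 and SJL replicate 3), for Mb (-1.45 to 0.51 with 1 array left out, at 0.08 and 0.51 without Balb replicate 2 and SJL replicate 1, 0.13 and 0.28 with the Gapdh and Actb covariates) and for the class II median (-0.24 to 0.68 with 1 array left out, at -0.24, -0.03 and -0.09 without the 3 arrays named for H2-Aa). The cause was not tested.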

Other observations

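Genes of immature and regenerating fibres gave 1 call in SJL EOM at 10 months. Limma called 0 of 25 on 22 arrays (2 had an unadjusted p under 0.05) and 1 rose on 18, with medians of 0.09 and 0.16. The 1 was Chrna1, a subunit of the muscle acetylcholine receptor, which read 2120.5, 3118 and 2367 in Balb and 8837, 5194 and 7119 in SJL, without overlap, a log2 difference of 1.16 (SE 0.31, adjusted p = 0.0419) on 18 arrays. Myh3 had -0.40 on 22 arrays and did not pass.

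Limma called 0 of 45 extracellular matrix genes on 22 arrays (2 had an unadjusted p under 0.05), and on 18 arrays Mgp, an inhibitor of calcification, and Timp3, an inhibitor of matrix proteases, rose by 1.07 and 0.78 while Col6a2, named because it passed, had -0.62. Mitochondrial genes had medians of 0.04 and 0.09 over 36 genes of oxidative phosphorylation and the TCA cycle. Of these Sdha, and Sucla2, named because it passed, rose on 18 arrays, by 0.54 and 0.44, and limma called 0 on 22 arrays (0 had an unadjusted p under 0.05).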
